A study of Citrus maxima and Citrus sinensis with 4 samples.

Results

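The loci described here are the 21 nt miRNA loci of *Citrus* leaves that carried a homology label to a known miRNA but lay outside the miRNA families most often followed in leaves. They were the loci of the deposited table with a label, a mature length of 21 nt and a label number other than those of miR156, miR159, miR160, miR164 to miR168, miR171, miR319, miR390, miR393, miR395 to miR399, miR403, miR408, miR827, miR828, miR858 and a few more families named under the processing. No read count entered the choice. There were 55 such loci of 699 in the table, and they held 41 distinct mature sequences under 41 labels. In all, 387 loci were labelled, of which 107 had 21 nt sequences, and 52 of these belonged to the families left out.

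Seedlings of *C. sinensis* ('Xuegan', a sweet orange described as tolerant to B-toxicity) and *C. grandis* (sour pummelo, described as intolerant) received nutrient solution with a sufficient or a toxic supply of boron (B), a plant micronutrient, and small RNA from mature leaves was sequenced. The 4 libraries were B-toxic *C. sinensis* (400 μM boric acid for 15 weeks), control *C. sinensis* (10 μM for 15 weeks), B-toxic *C. grandis* (400 μM for 15 weeks) and control *C. grandis* (10 μM for 15 weeks). All plants were sand-grown in pots in a greenhouse. RNA of 5 replicates was mixed for each library, so there was 1 library per condition and no replicate of any condition. Tests between a pair of libraries therefore compared those libraries and not the conditions. For the same reason every interval below covers counting error only. PCR copies were not told apart, so even that error may be understated. The table lists miRNA loci alone, so the leaf label could not be checked against marker transcripts.

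In plants, DCL1 cuts miRNAs out of hairpin precursors, and AGO1, which prefers a 5′ uracil, loads them and cuts or silences transcripts that pair almost fully with them. A small set of families is shared by nearly all land plants and acts on transcription factors, nutrient transporters and copper proteins. Many further miRBase names come from 1 plant or 1 lineage, are often weakly expressed, and have few established targets. The prefix of a name gives the species in which it was described, such as ath for *Arabidopsis thaliana*, ppt for the moss *Physcomitrella patens*, mtr for *Medicago truncatula*, osa for rice, ptc for poplar, gma for soybean, bdi for *Brachypodium distachyon*, smo for the lycophyte *Selaginella moellendorffii* and cre for the green alga *Chlamydomonas reinhardtii*. The labels here had 15 prefixes, led by ppt (10 loci), ath (9), mtr (8) and osa (7).

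The sequences on which the comparisons turned are printed here as the deposited table gives them, 5′ to 3′, with the seed (bases 2 to 8) in capitals. They are the sequences with the highest counts and those that differed between the species or with B.
ath-miR5014b: uUUUGUACaaacugacguggc
bdi-miR7748b-3p: uUGGUCAAaacaucugcuagg
ppt-miR1028a-5p: uCUUAGAUgacgugugggaug
ptc-miR473a-5p: aCUCUCCCucaagggcuucgc
ppt-miR898b: cUGCUGUGaugauuuaugaau
osa-miR530-5p: uGCAUUUGcaccugcaucuug
mtr-miR2622: uUUGUGUGguuguuguugagu
gma-miR4385: uAUCGAUGgucuuuguaagag
mtr-miR5263: gACUAAAGuggauucucuuuu
ath-miR5020c: uGGCAUGGcugcaucuagaag
mtr-miR2645: aUUCUAGAgaauucuaccaug
All 41 member labels had a seed of their own, so no seed was shared between 2 of these labels.

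Across the table a label went with the seed rather than with the whole sequence. The table held 264 labels, and 263 of them had 1 seed each. Of the 37 labels given to more than 1 sequence (93 sequences), 36 kept 1 seed, and 0 of the 312 unlabelled loci carried a seed that a labelled locus had. Of the member labels, 9 were also on 13 further sequences of other lengths, and all 13 had the member's seed. The label mtr-miR2622 shows how far such sequences could part beyond the seed.
mtr-miR2622 (member): uUUGUGUGguuguuguugagu
mtr-miR2622 (a 23 nt sequence): gUUGUGUGauugguguauucucc
mtr-miR2622 (a 24 nt sequence): uUUGUGUGugugauugagauucgu
mtr-miR2622 (a further 24 nt sequence): uUUGUGUGguucacaugagggaug
Apart from miR473a, whose 22 nt namesake shared its first 19 bases, the longest run that a member shared with a further sequence of its label was 7 to 11 bases in the 12 pairs. What is known of a namesake in its own species is therefore given below as background on the name alone. The mismatch column of the table read 0 at all 699 loci and gave no grade of likeness.

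The mature reads of the members, summed over loci, made up 2.23% of all mature reads in the B-toxic *C. sinensis* library and 2.00% in the control *C. sinensis* library, against 1.06% in the B-toxic *C. grandis* library and 1.27% in the control *C. grandis* library. These shares count a sequence once for each of its loci, so repeat counting enters the gap between the species. With each sequence counted once, the members held 2324, 2910, 2238 and 3082 reads in the same order. The libraries held 243277, 346600, 325441 and 373890 mature reads, in the same order, so that 3 reads corresponded to 12.3, 8.66, 9.22 and 8.02 reads per 1000000 mature reads (RPM). Relative to these library sizes, the gap between the species was smaller with each sequence counted once. Between the control libraries it was then nearly absent. The median over the member loci was 58 reads in the 4 libraries together, with a range of 1 to 2297, beside a median of 38 over all 699 loci. Counted by distinct sequence the median was 15 reads. The reads were concentrated in few sequences, since the 5 most abundant held 80.1% of the reads with each sequence counted once. At the other end, 14 sequences had fewer than 10 reads and 8 had 1 read. Of the 41 sequences, 20 had a read in every library and 28 in both species, 8 had reads in *C. grandis* only, with at most 5 reads, and 5 had reads in *C. sinensis* only.

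**Figure D1:**
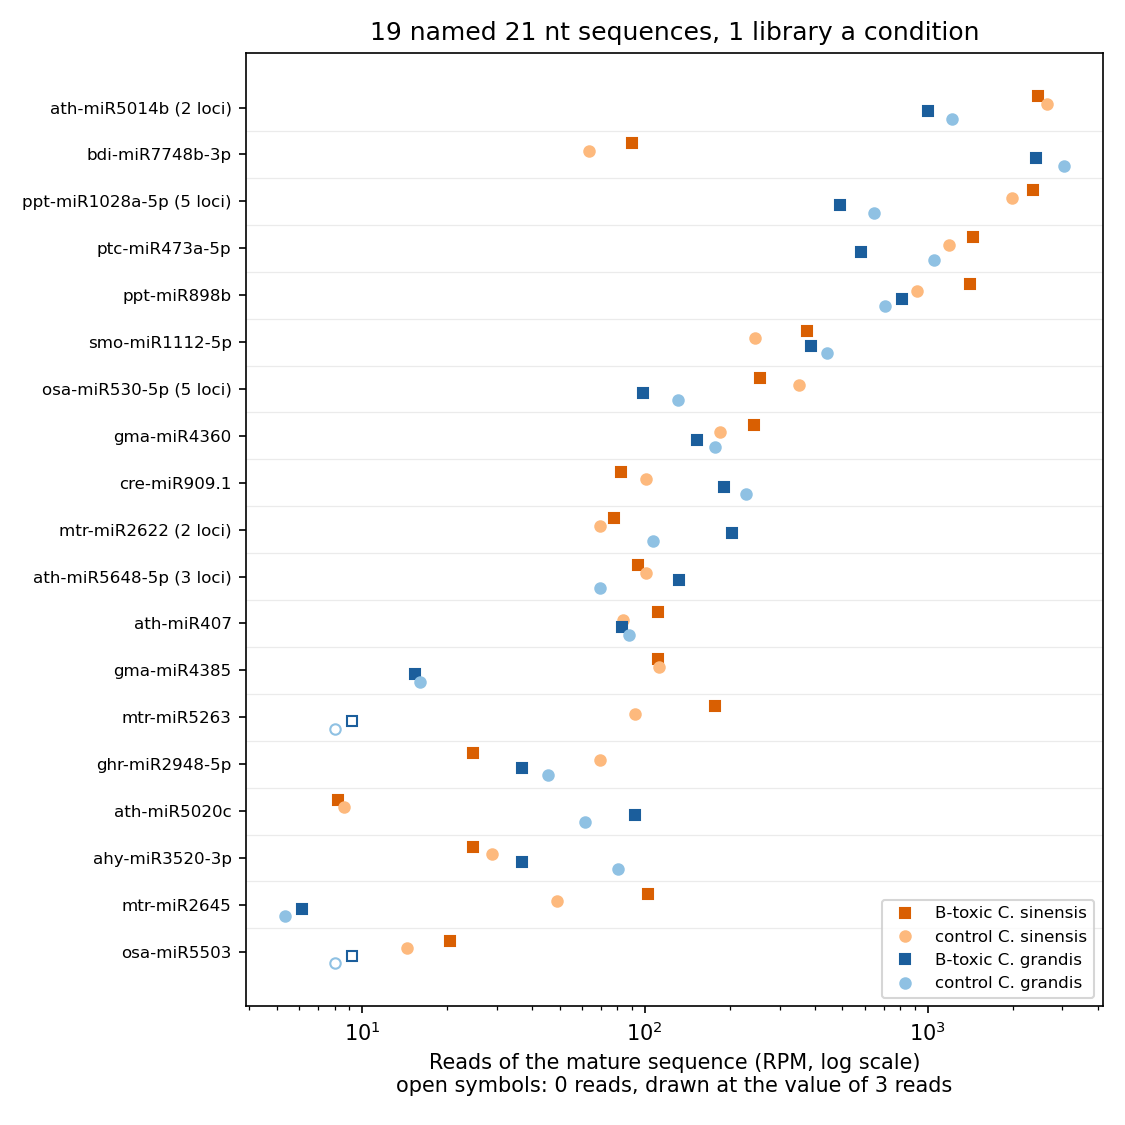
Levels of the 19 sequences described one by one, as RPM on a log axis, with 1 symbol for each library and the locus with the most reads for sequences at several loci. Open symbols are libraries with 0 reads, drawn at the value of 3 reads. The 2 *C. grandis* symbols lie far to the right of those of *C. sinensis* for bdi-miR7748b-3p (2412 and 3028 RPM, against 90.4 and 63.5 RPM), and the reverse holds for ppt-miR1028a-5p, gma-miR4385 and mtr-miR2645.

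Several members shared their reads. There were 7 sequences listed at more than 1 locus (21 loci, at most 5 for 1 sequence), and the sources used here do not say how the authors assigned a read that fits several loci. The sequences of ppt-miR1028a-5p and osa-miR530-5p were at 5 loci each. For osa-miR530-5p, the windows scaffold_6_1117409 and scaffold_6_1117410 were identical over all 60 bases in which they overlap, and the same held for scaffold_8_1368947 and scaffold_8_1368948, so these 4 listed loci held 2 such stretches. The 2 precursors of rgl-miR5575 were identical over their 111 bases. Counts of loci below are thus given with the number of distinct sequences, and loci of 1 sequence are not independent. The 2 loci of ath-miR5014b had the same mature sequence but unequal counts, 2297 and 1916 reads in all.

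Between the species, 17 member loci with 8 distinct sequences differed, of the 30 loci (18 sequences) that passed edgeR's filter on low counts. In *C. sinensis*, 15 loci were higher (6 sequences: ath-miR5014b, ppt-miR1028a-5p, osa-miR530-5p, gma-miR4385, mtr-miR5263 and mtr-miR2645) and 2 were lower (2 sequences: bdi-miR7748b-3p and ath-miR5020c). Over all 349 loci tested, 15.8% were called higher and 15.8% lower in *C. sinensis*, so 15 of 30 is above that background, but 10 of the 15 belong to 2 sequences. With each sequence counted once, 8 of 18 were higher, with ptc-miR473a-5p and ppt-miR898b added, and 2 lower, beside 16.5% and 15.8% over all 272 sequences. The median log2 ratio of *C. sinensis* over *C. grandis* was 1.25 over the 30 member loci and 0.05 over all loci tested. The member median counts loci, so ppt-miR1028a-5p (2.35 at scaffold_5_888052) and osa-miR530-5p (1.82) enter it at each of their 5 loci. It was not taken over distinct sequences. The test had 1 residual degree of freedom, and the libraries of a species differ in B supply, so its spread is not a spread between plants. The edgeR ratios are scaled with TMM, while RPM and the ratios between single libraries are not.

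The largest difference in RPM among the called loci was that of bdi-miR7748b-3p (scaffold_2_195596). It had 90.4 RPM in the B-toxic and 63.5 RPM in the control *C. sinensis* library, against 2412 RPM in the B-toxic and 3028 RPM in the control *C. grandis* library. These RPM rest on 22 reads in each *C. sinensis* library and on 785 and 1132 reads in the *C. grandis* libraries. It was the second most read of these sequences in the table and all but 1 of the reads on its precursor were the mature sequence. The log2 ratio of *C. sinensis* over *C. grandis* was -4.73 (edgeR, FDR = 0.000613), and it was -4.74 (exact 95% interval -5.42 to -4.13) between the B-toxic libraries and -5.58 (-6.26 to -4.97) between the control libraries. ath-miR5020c (scaffold_5_779105) was the other sequence that was lower in *C. sinensis*. It had 2 and 3 reads in the B-toxic and control *C. sinensis* libraries, against 30 and 23 reads in the B-toxic and control *C. grandis* libraries, a log2 ratio of -2.67 (edgeR, FDR = 0.0144). Its call was lost with DESeq2 (FDR = 0.215).

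ath-miR5014b was the most read member. At scaffold_3_488194 it had 2458 RPM in the B-toxic and 2649 RPM in the control *C. sinensis* library, against 1002 RPM in the B-toxic and 1217 RPM in the control *C. grandis* library, and at scaffold_1_155970 it had 2010, 1971, 937 and 1174 RPM in the same order. At both loci the *C. sinensis* libraries lay above the *C. grandis* libraries. The log2 ratio of *C. sinensis* over *C. grandis* was 1.63 (edgeR, FDR = 0.0129) at the first locus and 1.34 (FDR = 0.0238) at the second. The call at the first locus was lost without the control *C. grandis* library (FDR = 0.0656) or without the B-toxic one (FDR = 0.0784). At the second locus it was lost without TMM (FDR = 0.107), with clean reads (FDR = 0.0895) and without the control *C. sinensis* (FDR = 0.0629), the B-toxic *C. grandis* (FDR = 0.164) or the control *C. grandis* library (FDR = 0.0811).

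ppt-miR1028a-5p had nearly the same counts at all its 5 loci. At scaffold_5_888052 it had 2351 RPM in the B-toxic and 1982 RPM in the control *C. sinensis* library, against 492 RPM in the B-toxic and 645 RPM in the control *C. grandis* library. The species did not overlap, and the log2 ratio of *C. sinensis* over *C. grandis* was 2.35 (edgeR, FDR = 0.00332). The name is that of a moss miRNA, and the sequence was the second most read member in each *C. sinensis* library.

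osa-miR530-5p is named after a rice miRNA that acts on panicle branching and grain size. At each of its 5 loci it had 62 and 122 reads in the B-toxic and control *C. sinensis* libraries, against 32 and 49 reads in the B-toxic and control *C. grandis* libraries. In RPM these were 255 and 352 in *C. sinensis*, against 98.3 and 131 in *C. grandis*. The log2 ratio was 1.82 (edgeR, FDR = 0.0196), and between single libraries it was 1.37 (0.74 to 2.04) with B-toxic supply and 1.43 (0.94 to 1.93) in controls. Without TMM, which the single-library ratios do not use, the edgeR ratio was 1.40. The call was lost without the control *C. sinensis* library (FDR = 0.0629) and with scaling to clean reads (FDR = 0.0857).

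The other 3 sequences that were higher in *C. sinensis* had far fewer reads. gma-miR4385 (scaffold_6_1096941) had 27 and 39 reads in the B-toxic and control *C. sinensis* libraries, against 5 and 6 reads in the B-toxic and control *C. grandis* libraries, a log2 ratio of 3.22 (edgeR, FDR = 0.00344). mtr-miR2645 (scaffold_3_408195) had 25 and 17 reads in the B-toxic and control *C. sinensis* libraries, against 2 reads in each *C. grandis* library, a log2 ratio of 3.97 (edgeR, FDR = 0.00332). Neither sequence had overlapping levels between the species. mtr-miR5263 (scaffold_4_645368) had 43 and 32 reads in the B-toxic and control *C. sinensis* libraries and 0 reads in both *C. grandis* libraries. Set against 3 reads over the *C. grandis* libraries together, the counting floor, it was at least 29.6-fold higher in *C. sinensis* (edgeR, FDR = 0.00179), and DESeq2 did not call it (FDR = 0.171). osa-miR5503 (scaffold_7_1162862) had 5 reads in each *C. sinensis* library and 0 in both *C. grandis* libraries, at least 3.95-fold higher against the same floor. It did not pass edgeR's filter and was not tested there.

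Between single libraries, Fisher's exact test called 16 of 51 member loci tested (7 sequences) higher and 5 (4 sequences) lower in B-toxic *C. sinensis* than in B-toxic *C. grandis*, beside 9.46% and 15.0% of all loci. Between the control libraries it called 14 of 45 member loci tested (6 sequences) higher and 3 (3 sequences) lower in *C. sinensis*, beside 6.68% and 18.1% of all loci. Calls needed a ratio of 2 or more. Without that limit 22 of 51 member loci passed in the B-toxic and 20 of 45 in the control libraries, beside 30.4% and 31.7% of all loci. In both, the passing loci included all 5 of ppt-miR1028a-5p and all 5 of osa-miR530-5p. cre-miR909.1 was lower in *C. sinensis* in both, with 82.2 RPM against 191 RPM in the B-toxic libraries and 101 RPM against 227 RPM in the control libraries. Its edgeR ratio did not pass the test with TMM (log2 -0.77, FDR = 0.298) or without it (log2 -1.19, FDR = 0.081). The poplar label ptc-miR473a-5p passed in the B-toxic libraries only (log2 1.31, 1.05 to 1.57), while its ratio in the control libraries was 0.17 (-0.03 to 0.38). mtr-miR2622 was likewise called in the B-toxic libraries only, as lower in *C. sinensis*. At scaffold_4_676113 its log2 ratio was -1.38 (-2.20 to -0.62) there and -0.63 (-1.42 to 0.14) in the control libraries. ppt-miR898b had a log2 ratio of 0.80 (0.57 to 1.04) in the B-toxic and 0.37 (0.13 to 0.61) in the control libraries. With edgeR it fell just short in the test by locus (log2 1.00, FDR = 0.0528). It passed with each sequence counted once (log2 0.94, edgeR, FDR = 0.0366).

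**Figure D2:**
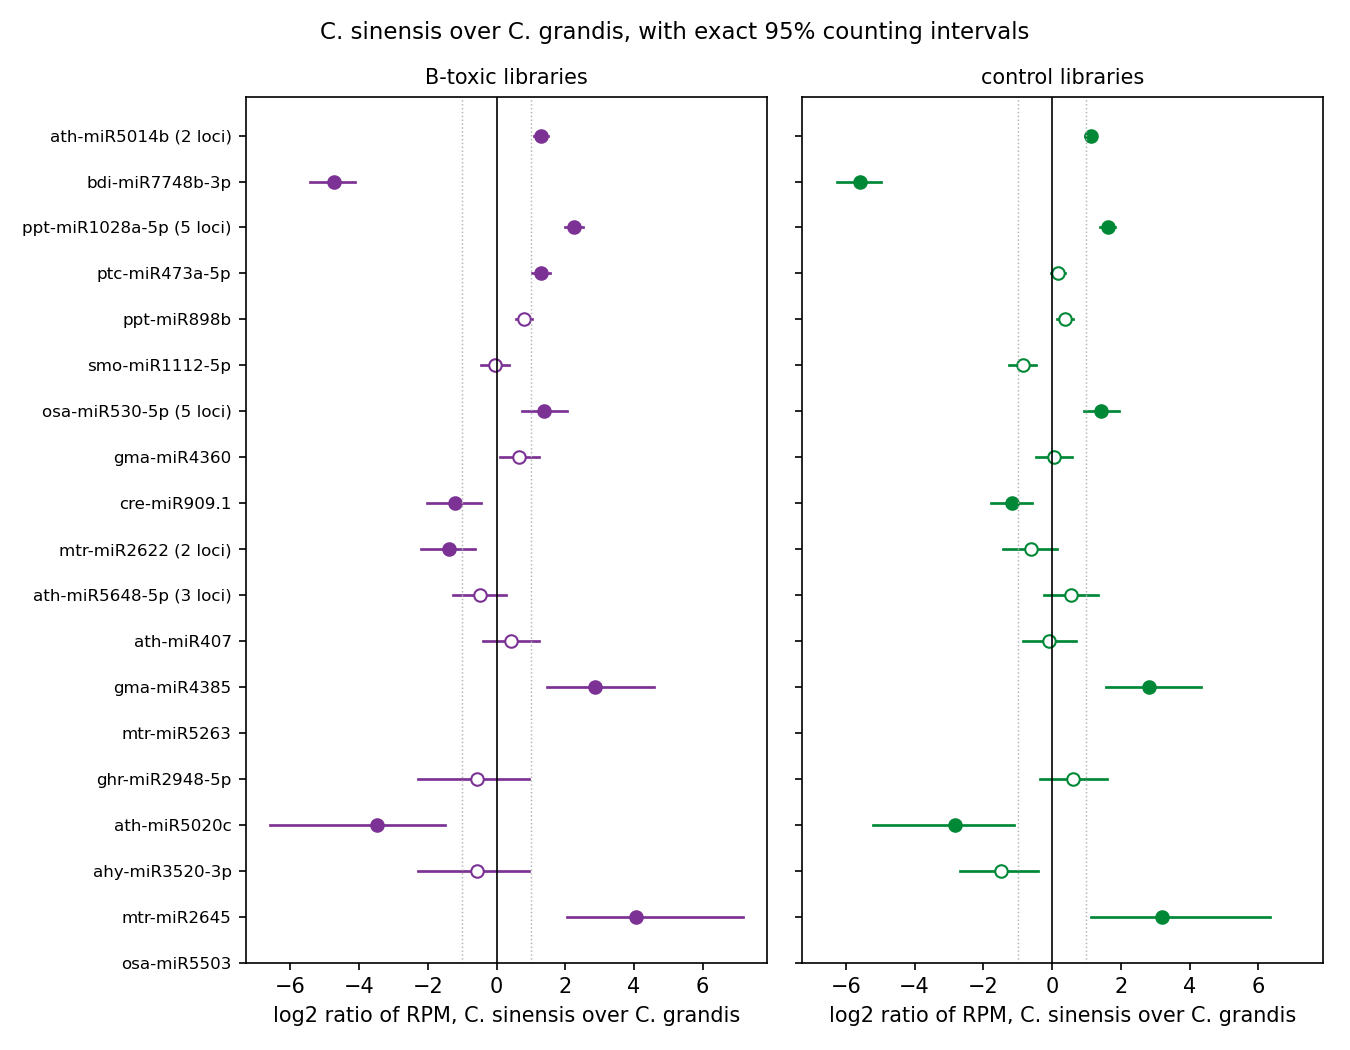
Log2 ratio of RPM of *C. sinensis* over *C. grandis* for the 19 sequences, in the B-toxic libraries (left) and in the control libraries (right), with exact 95% counting intervals. Filled symbols passed Fisher's exact test (FDR below 0.01) with a ratio of 2 or more (dotted lines), and mtr-miR5263 and osa-miR5503 have no point because they had 0 reads in *C. grandis*. bdi-miR7748b-3p stands at -4.74 and -5.58, and ptc-miR473a-5p and mtr-miR2622 are filled on the left only.

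For the response to B, a call needed an FDR below 0.01 by Fisher's exact test together with a ratio of 2 or more. In *C. sinensis*, 0 of the 46 member loci tested were called, beside 1.88% of all 640 loci, with 1.41% called higher and 0.469% called lower. An unadjusted p below 0.05 was reached at 16 member loci, beside 21.2% of all loci. These included all 5 loci of ppt-miR1028a-5p and all 5 of osa-miR530-5p, so fewer sequences than loci reached it. At 1 member locus the FDR was passed without the limit on the ratio, beside 8.91% of all loci. This was ppt-miR898b (scaffold_3_477662), which had 1414 RPM in the B-toxic and 915 RPM in the control *C. sinensis* library, a log2 ratio of 0.63 (0.40 to 0.85, FDR = 4.35e-07). In *C. grandis* it had 811 RPM in the B-toxic and 706 RPM in the control library (log2 0.20, -0.05 to 0.45, FDR = 0.323). This depended on the scaling, since with clean reads the log2 ratio of ppt-miR898b was 0.57 in *C. sinensis* (FDR = 7.3e-06) and 0.45 in *C. grandis* (FDR = 0.00248). The ratios of ppt-miR898b did not differ between the species by the exact test (FDR = 0.0672). Over the 24 distinct sequences with reads in both *C. sinensis* libraries, the median log2 ratio was 0.26, beside 0.25 over all loci.

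Other *C. sinensis* values rested on fewer reads. mtr-miR2645 had 103 RPM in the B-toxic and 49.0 RPM in the control library (log2 1.07, 0.12 to 2.05, FDR = 0.113). mtr-miR5263 had 177 RPM in the B-toxic and 92.3 RPM in the control library (log2 0.94, 0.24 to 1.64, FDR = 0.0495). ghr-miR2948-5p, named from cotton, had 24.7 RPM in the B-toxic and 69.2 RPM in the control library (log2 -1.49, -3.07 to -0.16, FDR = 0.135). None of these 3 passed Fisher's exact test at an FDR below 0.01, although their intervals did not include 0. The ratio of osa-miR530-5p was -0.47 (-0.93 to -0.01, FDR = 0.214) in *C. sinensis* and -0.41 (-1.10 to 0.26, FDR = 0.48) in *C. grandis*. smo-miR1112-5p had 374 RPM in the B-toxic and 245 RPM in the control *C. sinensis* library, against 387 RPM in the B-toxic and 441 RPM in the control *C. grandis* library, and passed no B test.

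In *C. grandis*, 1 of the 50 member loci tested was called, beside 7.05% of all 638 loci, 3.76% higher and 3.29% lower. It was a locus of mtr-miR2622 (scaffold_6_1029357), with 175 RPM (57 reads) in the B-toxic and 77.6 RPM (29 reads) in the control library, a log2 ratio of 1.18 (0.51 to 1.87, Fisher's exact test, FDR = 0.00231). In *C. sinensis* the same locus had 69.9 RPM (17 reads) in the B-toxic and 57.7 RPM (20 reads) in the control library, a log2 ratio of 0.28 (-0.75 to 1.28). The B ratios of this locus did not differ between the species by the exact conditional test (FDR = 0.488). The other locus of the sequence, scaffold_4_676113, had 203 RPM in the B-toxic and 107 RPM in the control *C. grandis* library, and its log2 ratio of 0.92 (0.33 to 1.53, FDR = 0.00753) fell short of the limit on the ratio. The call of mtr-miR2622 thus depended on which locus was taken, and with each sequence counted once, 0 members were called. It was also lost when libraries were assumed to vary by a coefficient of variation of 0.2 or 0.4. Scaling to clean reads called both loci, and with them the 3 loci of ath-miR5648-5p, also higher. The paper assayed a miR2622 sequence by qRT-PCR, with a primer that pairs with the last bases of the member sequence. It lists that assay among those that differed from its sequencing in *C. grandis*.

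Without the limit on the ratio, 4 member loci passed in *C. grandis*, beside 17.6% of all loci, and 15 reached an unadjusted p below 0.05, beside 29.9% of all loci. The 15 included all 5 loci of ppt-miR1028a-5p and all 3 of ath-miR5648-5p, so fewer sequences than loci reached it. The 2 that were higher were the loci of mtr-miR2622. The 2 that were lower were ptc-miR473a-5p, described below, and bdi-miR7748b-3p with a log2 ratio of -0.33 (-0.46 to -0.20, FDR = 1.11e-05). For bdi-miR7748b-3p this was lost with clean reads (log2 -0.07, FDR = 0.572) and with DESeq2 size factors (log2 -0.18, FDR = 0.0362). ath-miR5648-5p, at 3 loci, had 132 RPM in the B-toxic and 69.5 RPM in the control *C. grandis* library (log2 0.93, 0.19 to 1.69, FDR = 0.0461). ahy-miR3520-3p, a peanut name, had 36.9 RPM in the B-toxic and 80.2 RPM in the control *C. grandis* library (log2 -1.12, -2.22 to -0.11, FDR = 0.079). Neither passed the test. Of the 25 distinct sequences with reads in both *C. grandis* libraries, 8 had a ratio above 0 and 17 below, with a median of -0.20 beside -0.06 over all loci. This balance moved with the scaling, since with scaling to clean reads, which adds 0.25 to every log2 ratio, 13 were above 0 and 12 below (median 0.05).

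**Figure D3:**
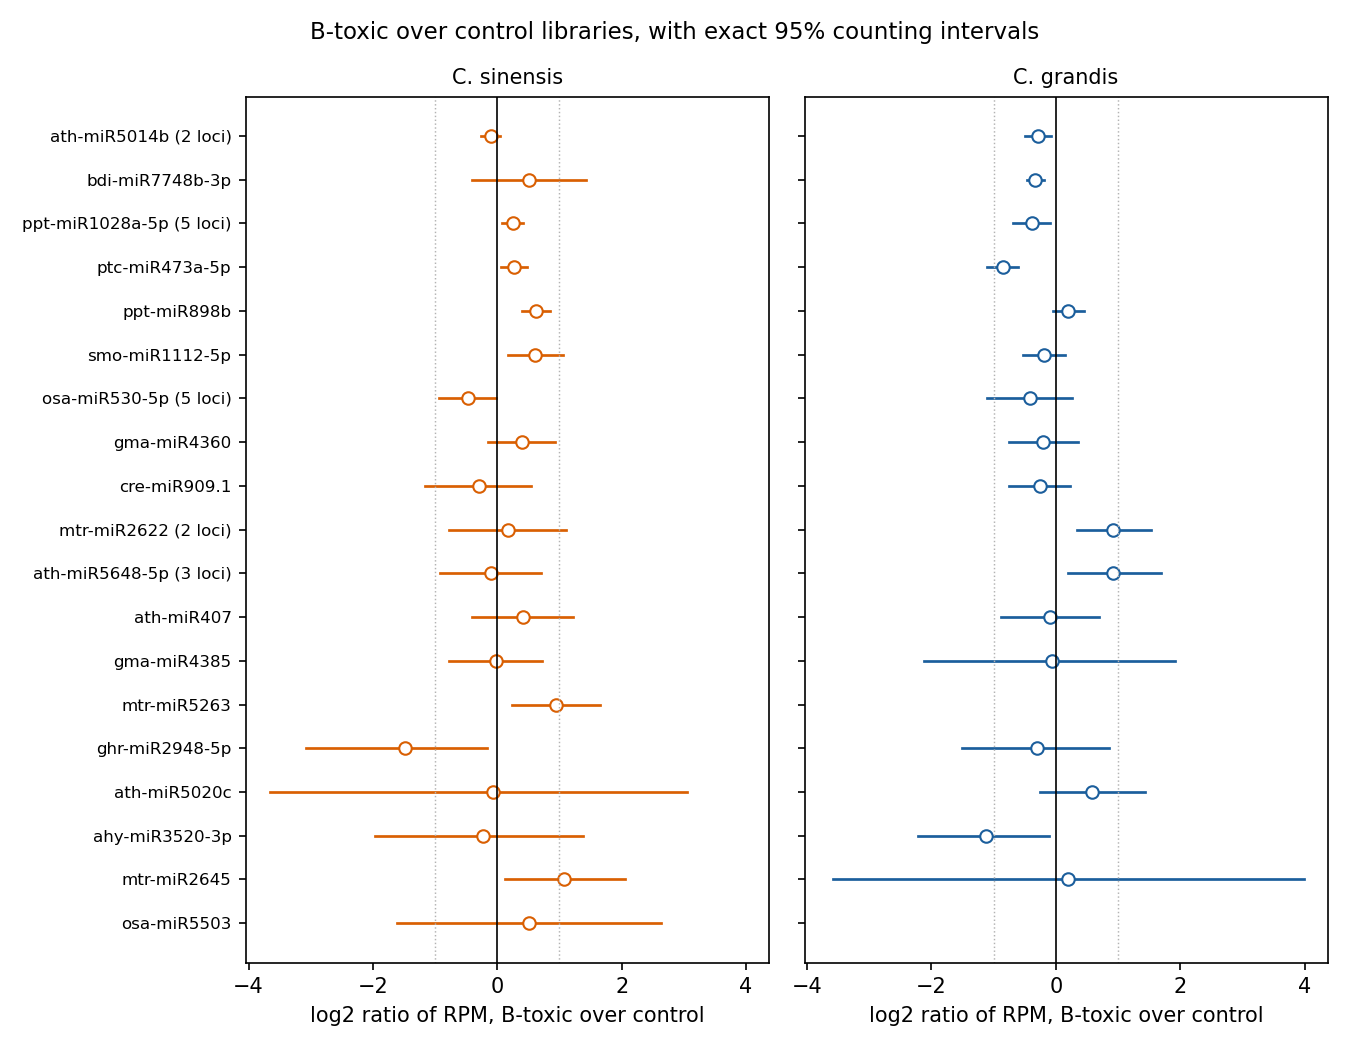
Log2 ratio of RPM of the B-toxic over the control library for the 19 sequences, in *C. sinensis* (left) and *C. grandis* (right), with exact 95% counting intervals and dotted lines at a ratio of 2 either way. No sequence is filled because at the locus drawn none passed the FDR together with the limit on the ratio, and the second locus of mtr-miR2622, which did, is not drawn. ptc-miR473a-5p stands at 0.28 on the left and -0.86 on the right.

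The clearest difference between the species in the response to B was that of ptc-miR473a-5p (scaffold_4_740963). It had 1443 RPM (351 reads) in the B-toxic and 1192 RPM (413 reads) in the control *C. sinensis* library. In *C. grandis* it had 584 RPM (190 reads) in the B-toxic and 1056 RPM in the control library. The B-toxic *C. grandis* library thus stood apart from the other 3. The log2 ratio was 0.28 (0.07 to 0.48, FDR = 0.0633) in *C. sinensis* and -0.86 (-1.11 to -0.60, FDR = 9.65e-11) in *C. grandis*, and the ratios differed between the species by the exact conditional test (FDR = 1.1e-10). This difference passed the test under every scaling tried.

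A 22 nt sequence with the same label, which the length rule leaves outside the members, is shown with it because the comparison turns on where they differ.
ptc-miR473a-5p, 21 nt: aCUCUCCCucaagggcuucgc
ptc-miR473a-5p, 22 nt: aCUCUCCCucaagggcuucuga
The 22 nt sequence (scaffold_3_485521) had 1044 RPM in the B-toxic and 1333 RPM in the control *C. sinensis* library, against 350 RPM in the B-toxic and 888 RPM in the control *C. grandis* library. Its log2 B ratio was -0.35 (-0.58 to -0.13) in *C. sinensis* and -1.34 (-1.66 to -1.03) in *C. grandis*, and these differed by the exact test (FDR = 3.64e-06). Both sequences were thus lowest in the B-toxic *C. grandis* library, and in *C. sinensis* their ratios lay on either side of 0. The table lists them at separate loci, whose precursors of 109 bases shared no run longer than 21 bases.

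The exact test of unequal B ratios called 6 of the 41 member loci with reads in both species, and these held 2 sequences, beside 13.3% of all 579 loci. Besides ptc-miR473a-5p these were the 5 loci of ppt-miR1028a-5p. At scaffold_5_888052 the log2 B ratio of ppt-miR1028a-5p was 0.25 (0.08 to 0.41) in *C. sinensis* and -0.39 (-0.69 to -0.10) in *C. grandis* (FDR of the difference 0.00138). This call did not hold with scaling to clean reads (FDR = 0.283), nor with the TMM or DESeq2 scaling. An unadjusted p below 0.05 was reached at 9 of the 41 loci, the 5 of ppt-miR1028a-5p among them, beside 24.9% of all loci.

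Apart from the sequences above, gma-miR4360 had 243 and 185 RPM in the B-toxic and control *C. sinensis* libraries, against 154 and 177 RPM in the B-toxic and control *C. grandis* libraries. ath-miR407 had 27 and 29 reads in the B-toxic and control *C. sinensis* libraries, against 27 and 33 reads in the B-toxic and control *C. grandis* libraries. Neither passed a test of B or of species. The intervals of their log2 B ratios ran from -0.14 to 0.93 and from -0.40 to 1.22 in *C. sinensis*, and from -0.76 to 0.35 and from -0.88 to 0.69 in *C. grandis*, so a doubling in *C. grandis* lay outside both. The remaining 24 loci had at most 6 reads in each *C. sinensis* library and at most 8 in each *C. grandis* library. Among them, cpa-miR477, a papaya name, had 5 and 4 reads in the B-toxic and control *C. sinensis* libraries, against 8 reads in each *C. grandis* library. aly-miR158b-5p, whose *Arabidopsis* family is directed at transcripts of pentatricopeptide repeat proteins, had 2 reads, both in the B-toxic *C. grandis* library. None of these 24 loci passed any of the tests above. With so few reads, the lack of a call does not show that levels were equal.

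Features that the rule did not use are given here as descriptions without a test. A 5′ uracil was at 19 of the 41 sequences (46.3%), with 10 starting with A, 10 with C and 2 with G, beside 65% with U among the families left out and 53.1% among the unlabelled 21 nt loci. With each sequence counted once, those with a 5′ uracil held 60.2% of the member reads in B-toxic *C. sinensis* and 67.3% in control *C. sinensis*, against 69.2% in B-toxic and 69.4% in control *C. grandis*. The predicted minimum free energy of the 55 precursors had a median of -27.4 kcal/mol (range -74.8 to -18.8), beside -39.6 kcal/mol for the families left out, -46.2 kcal/mol for the unlabelled 21 nt loci and -30.1 kcal/mol over all loci. A median of 15 of the 21 mature bases was paired, beside 19 in both of the other 21 nt classes. In 31 precursors (56.4%) at least 15 mature bases paired to the same side, beside 82.7% and 82.9%.

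The members varied among themselves in the same features. In both precursors of mtr-miR2622, 21 of 21 mature bases were paired (-40.8 and -44.6 kcal/mol), and ptc-miR473a-5p had 19 paired bases in a fold of -52.3 kcal/mol. ath-miR5014b at its most read locus had 14 paired bases and -29.3 kcal/mol, and bdi-miR7748b-3p had 13 and -21.5 kcal/mol. High counts were thus found with weak predicted folds too. Other reads lay on 43 of the precursors and none on 12, and the mature sequence took a median of 97.4% of the reads of its precursor, with a lowest value of 50%. The mature share was 83.7% at ptc-miR473a-5p and 59.5% at smo-miR1112-5p. The mature sequence lay on the 5′ arm at 28 loci and on the 3′ arm at 27.

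**Figure D4:**
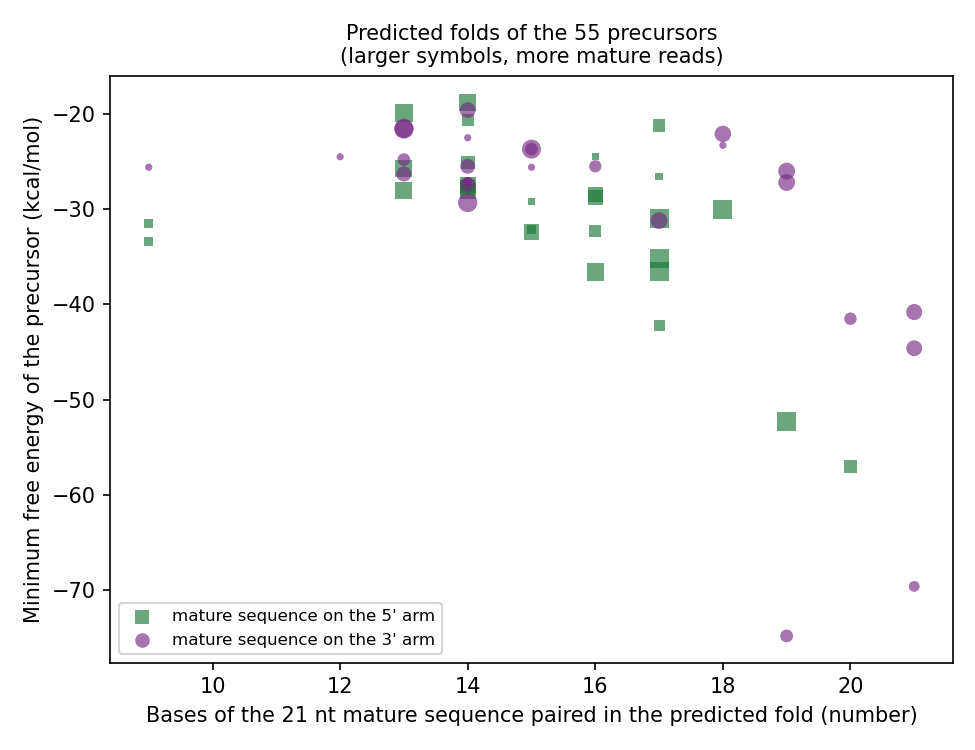
Predicted minimum free energy of each of the 55 precursors (kcal/mol) against the number of the 21 mature bases that are paired in the fold, with squares for a mature sequence on the 5′ arm and circles for the 3′ arm, and larger symbols for more mature reads. Most precursors lie between -20 and -35 kcal/mol with 13 to 17 bases paired, and few have a fold below -40 kcal/mol with 19 to 21 bases paired, among them both precursors of mtr-miR2622 and that of ptc-miR473a-5p.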

How the data were processed

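The values used are read counts. The authors trimmed and filtered the reads, discarded other RNA classes, searched miRBase 21, used MTide (version not given in the sources used here) to predict precursors on version 1.0 of the *C. clementina* genome, and deposited for each precursor locus the raw count of mature reads in each library. How reads fitting several loci were treated is also not stated there. Locus names are those of the table and were not placed on a genome.

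Labels left out were miR156, miR157, miR159, miR160, miR162, miR164 to miR168, miR170, miR171, miR319, miR390, miR393, miR395 to miR399, miR403, miR408, miR827, miR828, miR857, miR858, miR908, miR2111 and miR6232. Counts were scaled to reads per 1000000 mature reads (RPM). B-toxic and control libraries of a species were compared by Fisher's exact test (two-sided), and the B ratios of the species by an exact conditional test, each with Benjamini-Hochberg adjustment over all loci with reads (FDR below 0.01, and for Fisher's test a ratio of at least 2). Intervals of ratios are Clopper-Pearson 95% intervals. Species were compared with edgeR 4.0.16 (quasi-likelihood test, TMM, filterByExpr, B treatment and species in the model, FDR below 0.05, R 4.3.3). Folds are from ViennaRNA 2.7.2, Fisher's tests from scipy 1.17.1. The code of the tests was checked on simulated counts. For Fisher's test and the exact conditional test these counts held counting error only, so the check could not cover variation between libraries or plants.

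Alternatives were the chi-square test, scaling to clean reads, TMM or DESeq2 1.42.0 size factors, other filters and thresholds, an assumed coefficient of variation, each distinct sequence once, DESeq2, species alone and each library left out. Sequences described one by one had at least 50 reads, a call, or at least 10 reads in 1 species and 0 in the other. Members, lists and tests were chosen with earlier results of these data known.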

Additional observations from a re-analysis of the deposited data

Results flagged for a closer look

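The B ratio differed between the species, by the exact conditional test, at 6 loci. For ptc-miR473a-5p (scaffold_4_740963) the FDR of the difference was 1.1e-10, with a log2 B ratio of 0.28 in *C. sinensis* and -0.86 in *C. grandis*. For ppt-miR1028a-5p it was 0.00138 at scaffold_5_888052, scaffold_5_888102, scaffold_5_888388 and scaffold_5_888454, and 0.000864 at scaffold_5_770886, where the log2 B ratio was 0.25 in *C. sinensis* and -0.42 in *C. grandis*. The 5 loci share 1 sequence and nearly all their reads, so they are 1 observation. With 1 library per condition the test covers counting error only.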

How the results depend on the processing

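No paired analysis was possible because each condition had 1 library and the labels number no replicates. The species model compares the species within B levels, and with species alone it called 19 members against 17. In *C. grandis* the count of members called for B was 1, against 0 with each sequence counted once or where a coefficient of variation of 0.2 or 0.4 was assumed, 2 with DESeq2 size factors, 4 without the limit on the ratio and 5, all higher, with clean reads. In *C. sinensis* it was 0, and 1 without the limit on the ratio. The count of unequal B ratios was 6, against 2 with each sequence counted once and 1 with each of the 3 other scalings. The count of species differences was 17, against 10 with each sequence counted once, 11 with clean reads, and 11 to 17 with each library left out (11 without control *C. sinensis*). The cause of these changes was not tested, apart from the sequences listed at several loci, which count once in that setting. For the 17 loci called between species and the 1 called for B, 137 values under an alternative kept the call, 19 lost it and 0 changed sign. This tally is by locus, so ppt-miR1028a-5p and osa-miR530-5p each enter it at 5 loci. For the B call it covers only the 3 other scalings, and not the settings above that lost this call. With edgeR, ptc-miR473a-5p gained a species call with each sequence counted once (FDR = 0.0134) and with species alone (FDR = 0.0208). Without control *C. grandis* its log2 ratio was 1.64. ppt-miR898b gained a call with each sequence counted once (FDR = 0.0366) and with species alone (FDR = 0.0248). osa-miR5503 gained one without the filter on low counts (FDR = 0.00534). The unequal B ratio of ppt-miR1028a-5p was lost with each of the 3 other scalings. Relative to the scaling by mature reads, every log2 ratio between the species moved by 0.46 (control) and 0.32 (B-toxic) with TMM and by -0.08 and -0.39 with clean reads. The median species ratio over member loci was 1.25 with TMM, 0.83 without it and 0.60 with clean reads, beside 0.05, -0.37 and -0.61 over all loci. Sequences at several loci count more than once in these medians. Depth limited above all the 24 loci given by their range.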
